A study of Nasonia vitripennis with 76 samples.

Results

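Gustatory receptors of the parasitoid wasp Nasonia vitripennis are described here across heads and abdomens of males and females of different ploidy. The set holds 46 of the 14621 genes with counts, and its members were chosen by symbol, as every gene named Gr followed directly by a digit, without use of any measured value. All 46 symbols matched the gene table of assembly Nvit_psr_1.1 (its names, chromosomes and gene order alone were used). That table lists 11 further Gr loci as pseudogenes, which were not members.

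Gustatory receptors are membrane proteins of insect taste neurons that act as ligand-gated ion channels, opened by sugars, bitter compounds or other contact chemicals. They belong to the same superfamily as the odorant receptors, whose shared co-receptor is Or1 in this gene set, and they sit on mouthparts, antennae, legs, wings and, in several insects, on internal organs. Gr2 belongs to the lineage of the candidate sugar receptors of the honey bee, and Gr3 is the counterpart of the fruit fly fructose receptor Gr43a, which works both in taste organs and in the brain. For the other members only the family name is given here, because no ligand is known to the sources used.

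Libraries were made from polyadenylated RNA of heads or of abdomens, from wasps sampled 1 day after emergence. All wasps were of the TRA strain, a line with extra chromosome sets that goes back to a knockdown of the sex determination gene transformer. The 8 head groups were F15 2N males, F15 1N males, F3 2N males, F3 1N males, F14 3N females, F14 2N females, F2 3N females and F2 2N females, and the 8 abdomen groups were the same. Each group had 5 libraries, except 4 for F2 3N female heads and 3 each for abdomens of F3 2N males and F2 2N females. Haploid males and diploid females are the usual ploidies of this wasp, and no wasps of another strain are among the 76 libraries. The labels do not say whether libraries came from separate wasps, so p-values measure only the spread between these libraries.

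Total expected counts ran from 14.2 to 60.1 M per library. A34, labelled as an F2 3N female head, was left out. It had 0 CPM (counts scaled to library size) of the visual opsin Lop1 and 1730 CPM of the 3 female germ line markers oskar, nanos and cycB, whereas the other female heads had 791 to 19806 CPM of Lop1 and at most 40.2 CPM of the germ line markers. Among the early heads, A35 of F2 3N females, A1A and A2A of F3 1N males and A15A of F3 2N males also stood apart. They had 19806, 11634, 15326 and 10301 CPM of Lop1. Several of the receptor results that these libraries enter, but not all, are given with and without them. The tissue labels of the other 75 libraries matched their levels of Lop1 and of the neuron markers. Lop1 stood at 1735 to 15326 CPM in male heads against at most 5.34 CPM in male abdomens, and at no more than 2.76 CPM in female abdomens. The 5 neuron markers summed to 843 to 1701 CPM in male heads and 55.8 to 251 CPM in male abdomens. In females they summed to 1392 to 2329 CPM in heads and 6.47 to 65.7 CPM in abdomens. Or1, the antennal marker, did not separate the tissues. It stood at 20.2 CPM in A79 of F15 1N male abdomens, and at 7.07 (A58) and 5.74 CPM (A69) in F14 female abdomens. In heads Or1 went as low as 0.9185 CPM in females and 1.80 CPM in males. The part of this in the receptor values was not tested.

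A member was called detected in a group when a majority of the group's libraries held an expected count of at least 3. By this rule 37 of the 46 members were detected in at least 1 group, against 91.3% of all genes. In at least 1 head group 34 members were detected, against 85.2% of all genes, and in at least 1 abdomen group 18, against 88.1% of all genes. The receptors were thus fewer in abdomens than in heads, while the gene set as a whole was not. Of the 37, 19 were detected in heads alone, 15 in heads and abdomens, and 3 (Gr12, Gr13 and Gr50) in abdomens alone. Those 3 met the rule in 1 abdomen group each, so they were not confined to abdomens. Gr13 reached 3 counts in 10 head and 9 abdomen libraries, Gr12 in 6 and 7, and Gr50 in 3 and 3. With every library scaled to the total of the shallowest, the members detected in heads alone numbered 14.

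Counts were low. The highest expected count in any library was under 20 for 27 members, and 53.1% of all receptor values were 0, against 17.5% of the values of all genes. The 9 members detected in no group were Gr4, Gr8, Gr10, Gr11, Gr21, Gr22, Gr43, Gr51 and Gr52, of which Gr4 and Gr52 never reached 3 counts. The other 7 reached 3 counts in single libraries, Gr21 in 11, Gr22 in 8, Gr8 in 7 and Gr43 in 5 of them, without a majority in any group, so missing this rule does not show that a member was absent.

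**Figure D1:**
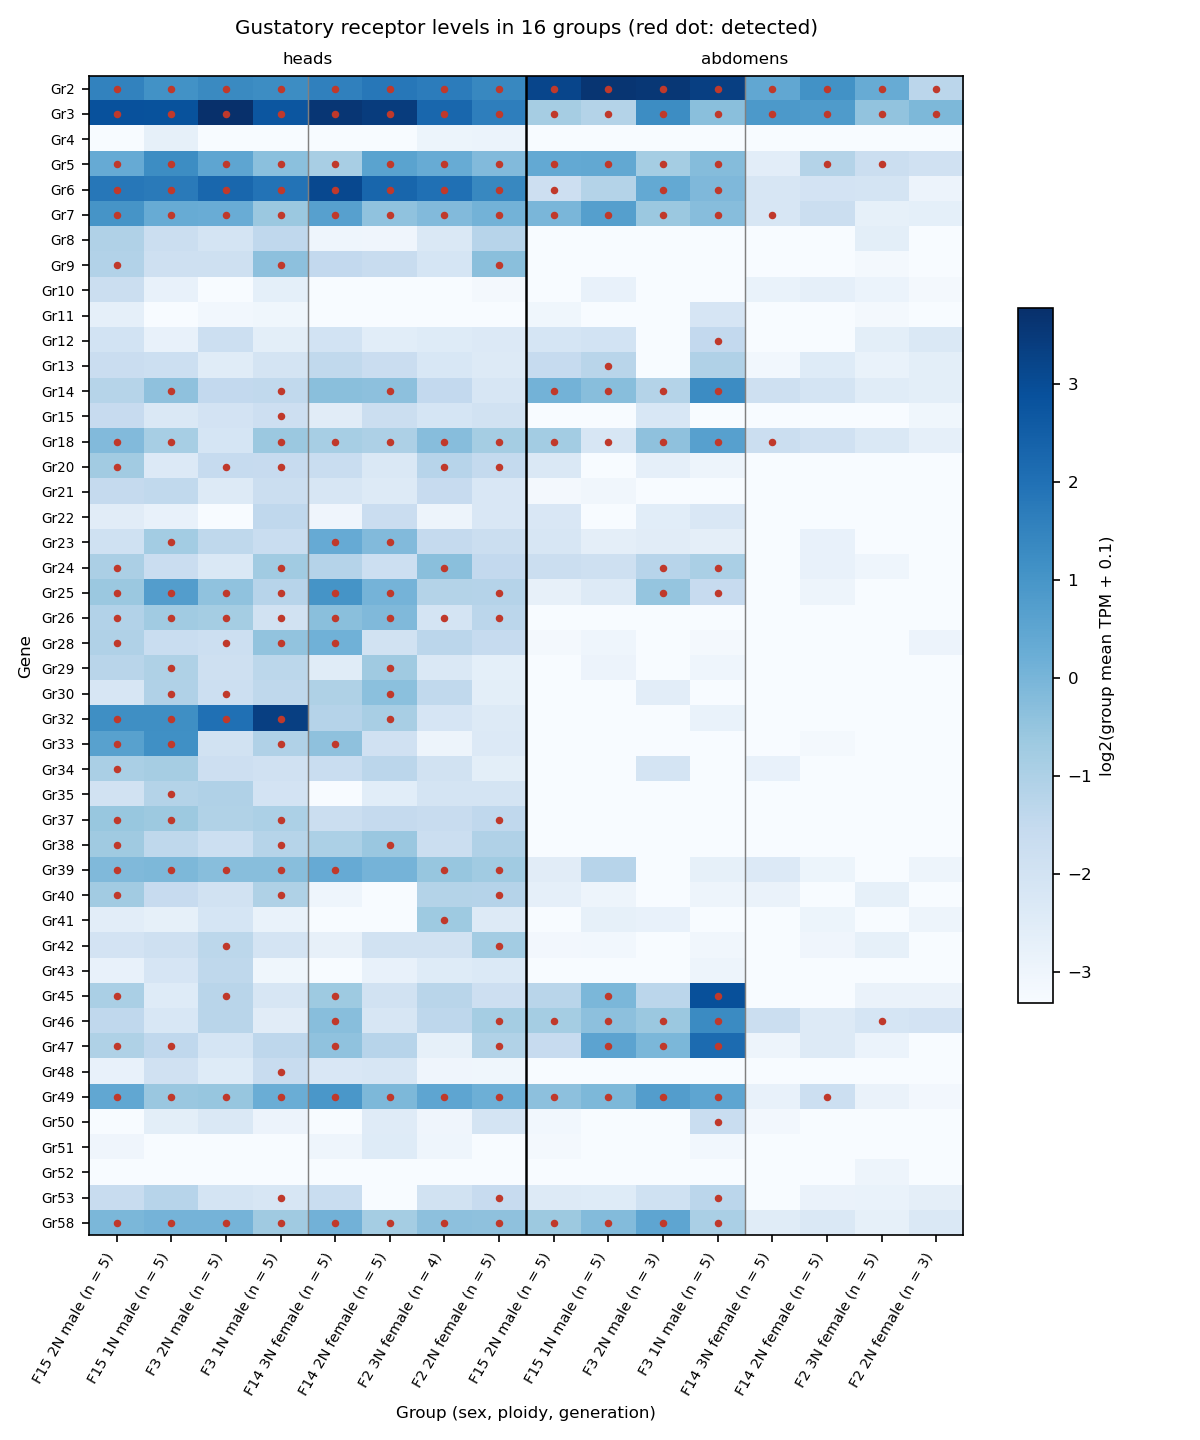
Mean level of each of the 46 gustatory receptors in each of the 16 groups, as log2 of the mean TPM plus 0.1. Rows are ordered by the number in the gene symbol. Columns have heads left of abdomens and males left of females. A red dot marks a group in which the receptor was detected. Gr2 and Gr3 carry a dot in all 16 columns, and the long run of chromosome 4 members is dotted mainly in heads.

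Gr2 and Gr3 were the 2 members detected in all 16 groups. Gr5, Gr6, Gr7, Gr26, Gr49 and Gr58 joined them in all 8 head groups. In all 4 groups of male abdomens 9 members were detected (Gr2, Gr3, Gr5, Gr7, Gr14, Gr18, Gr46, Gr49 and Gr58), and in all 4 of female abdomens 2 (Gr2 and Gr3). In at least 1 group, male abdomens held 18 members and female abdomens 7 (Gr2, Gr3, Gr5, Gr7, Gr18, Gr46 and Gr49). These were 39.1% and 15.2% of the members, against 86.0% and 80.2% of all genes. Thus 11 members (23.9%) were detected in male but in no female abdomens, and 0 the other way round, against 7.92% and 2.09% of all genes. Heads of the sexes were closer in this count, with 32 members in a group of male heads and 30 in a group of female heads (69.6% and 65.2%, against 83.2% and 82.5% of all genes). Among heads, Gr15, Gr34, Gr35 and Gr48 were detected in males alone and Gr41 and Gr46 in females alone, and of these Gr15, Gr35, Gr41 and Gr48 never exceeded 11 counts in a library.

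**Figure D2:**
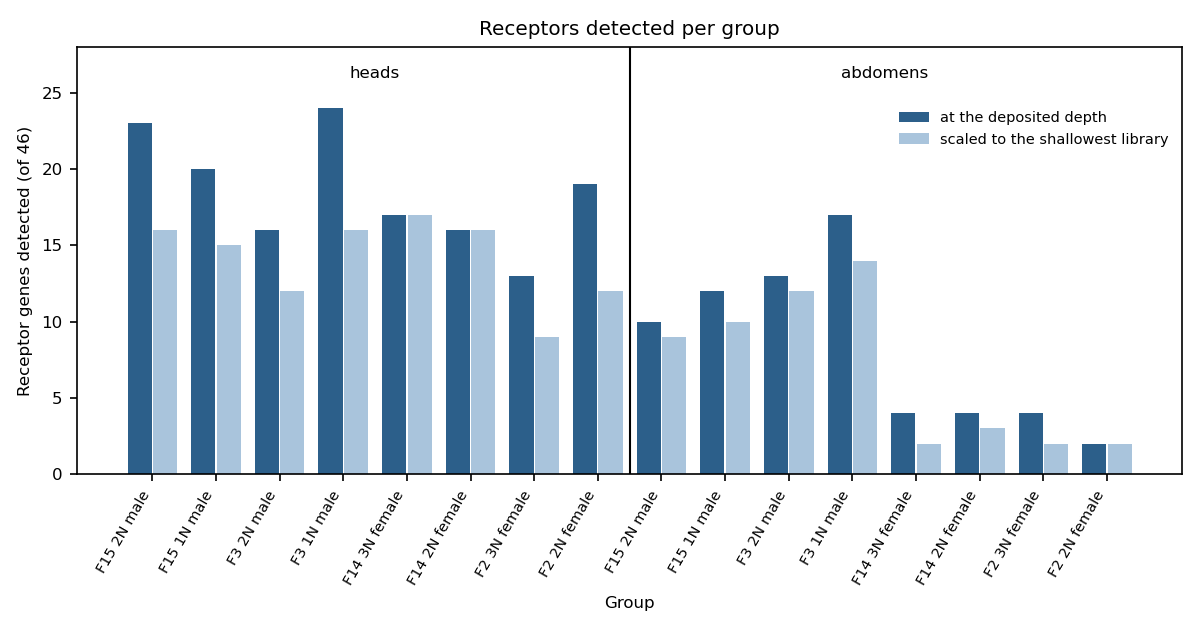
Number of the 46 gustatory receptors detected in each of the 16 groups, at the deposited depth and with every library scaled to the total of the shallowest. Bars start at 0. Heads have 13 to 24 detected members at the deposited depth, male abdomens 10 to 17 and female abdomens 2 to 4.

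Per group, the heads of males held 23 (F15 2N), 20 (F15 1N), 16 (F3 2N) and 24 (F3 1N) detected members, and the heads of females 17 (F14 3N), 16 (F14 2N), 13 (F2 3N) and 19 (F2 2N). In abdomens of males the numbers were 10, 12, 13 and 17 in the same order of groups, and in abdomens of females 4, 4, 4 and 2. Of all genes, a group of male heads held 78.1% to 79.4%, of female heads 74.4% to 79.7%, of male abdomens 80.5% to 82.1% and of female abdomens 74.5% to 77.9%. The bars of detected members by group show that female abdomens were lowest at either depth. Scaled to equal depth, heads held 9 to 17, male abdomens 9 to 14 and female abdomens 2 to 3 detected members, and the late female heads, with 17 and 16, then held no fewer than the male heads, with 12 to 16.

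The summed level of the 46 members was set by few of them. Group means ran from 19.6 to 23.9 CPM in male heads and from 11.8 to 26.7 CPM in female heads. They ran from 21.9 to 31.1 CPM in male abdomens and from 1.97 to 5.43 CPM in female abdomens. Gr2 and Gr3 together made up 25.7% to 70.1% of a group's summed TPM, the measure that corrects for gene length. By TPM, Gr3 led in 9 groups, Gr2 in 6 and Gr32 in 1, the heads of F3 1N males.

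Ordered by their highest group mean in TPM, the leading members were Gr3 (13.7 TPM in F3 2N male heads), Gr2 (12.2 TPM in F15 1N male abdomens), Gr32 (10.2 TPM in F3 1N male heads) and Gr6 (8.55 TPM in F14 3N female heads). Gr45, Gr47, Gr46 and Gr14 followed with 7.37, 4.38, 2.34 and 2.30 TPM, all in F3 1N male abdomens. These 8 thus peaked in 5 different groups, 4 of them in the same one. The order at the top rests on the early heads that stood apart: without A35, A1A, A2A and A15A it was Gr32 (16.1 TPM in F3 1N male heads), Gr2 (12.2 TPM in F15 1N male abdomens) and Gr3 (12.0 TPM in F14 3N female heads).

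**Figure D3:**
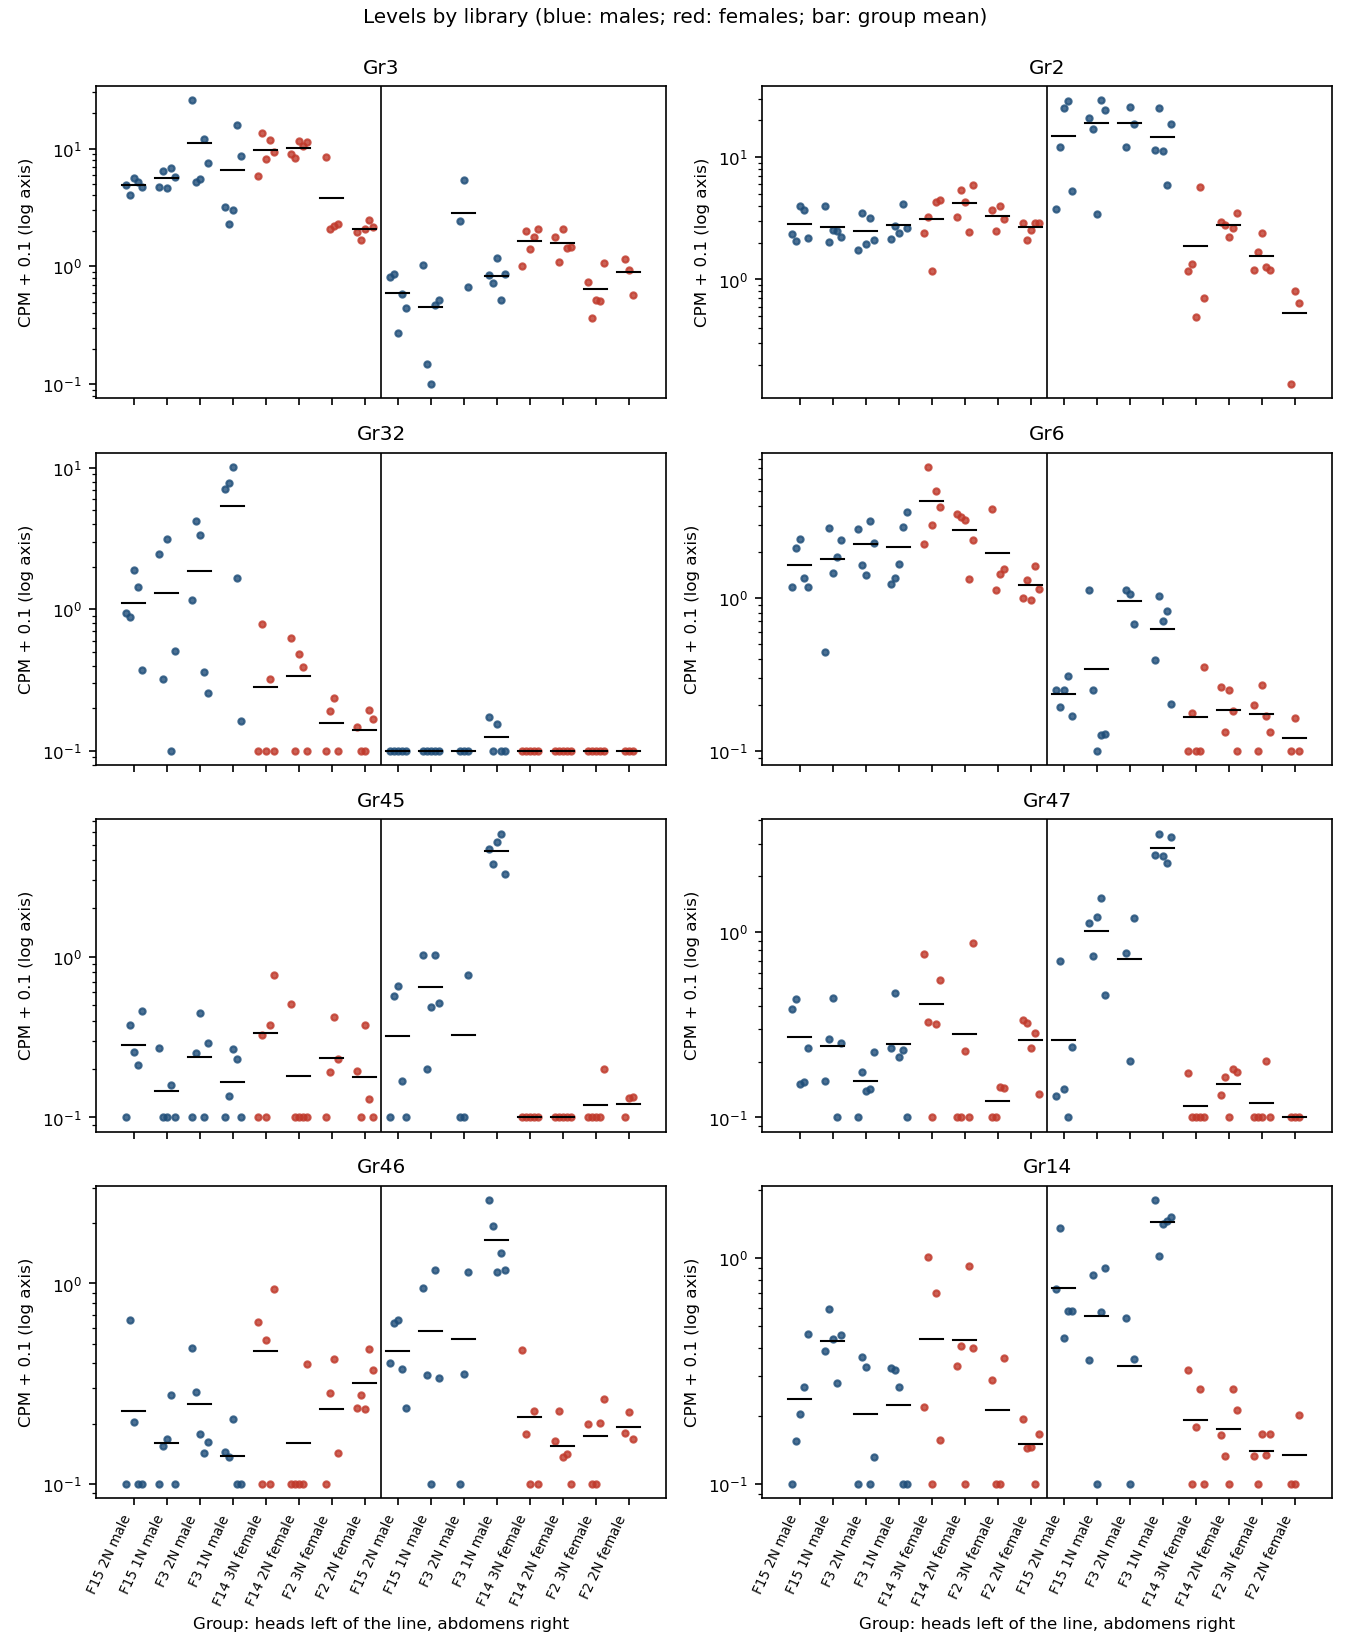
Level of the 8 receptors with the highest group mean, in CPM plus 0.1 on a log axis, for every library of the 16 groups (heads left, abdomens right, males blue, females red; the bar is the group mean). Gr3 and Gr6 are highest in heads, Gr2 in male abdomens, Gr32 in male heads, and Gr45, Gr46, Gr47 and Gr14 in F3 1N male abdomens.

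The plot of single libraries shows how unevenly the leading members were spread. Gr3, the Gr43a counterpart, had 4.81, 3.91, 5.56, 5.08 and 4.65 CPM in F15 2N male heads and 4.64, 6.31, 4.53, 6.70 and 5.69 CPM in F15 1N male heads. In F3 2N male heads it had 25.7 (A15A), 5.11, 5.43, 12.1 (A12) and 7.47 CPM, and in F3 1N male heads 3.12, 2.21, 2.90, 15.6 (A2A) and 8.56 (A1A) CPM. The late male heads lay close together, and the early ones spread severalfold within a group. In female heads Gr3 averaged 9.65 ± 2.99 CPM (F14 3N) and 10.0 ± 1.42 CPM (F14 2N), against 3.67 ± 3.18 CPM (F2 3N, n = 4) and 1.97 ± 0.285 CPM (F2 2N; SD, n = 5 unless given). The F2 3N mean rests on A35, with 8.44 CPM, since the other 3 libraries had 1.99, 2.09 and 2.17 CPM.

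Of the 5 early heads with the most Gr3, 4 were also those with the least of the odorant co-receptor Or1. Or1 stood at 21.5 CPM in A15A, 7.95 in A12, 6.81 in A2A, 9.40 in A1A and 2.51 in A35, against 14.9 to 373 CPM in the other early heads. Only A15A overlapped with those. The part of this in the Gr3 results below was not tested.

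Gr2, the candidate sugar receptor, was highest in male abdomens. It had 3.65, 11.9, 25.2, 28.3 and 5.19 CPM in F15 2N male abdomens and 20.9, 16.9, 3.31, 29.0 and 24.3 CPM in F15 1N male abdomens. In F3 2N male abdomens it had 11.9, 25.6 and 18.7 CPM, and in F3 1N male abdomens 11.3, 24.98, 11.2, 5.76 and 18.6 CPM. Libraries within a male abdomen group thus differed severalfold, and the 4 groups overlapped. Group means of the other groups were 2.38 to 2.75 CPM in male heads, 2.56 to 4.15 CPM in female heads and 0.432 to 2.71 CPM in female abdomens.

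Gr32 was highest in male heads. In F15 male heads the values ran from 0 to 3.06 CPM, and in F3 2N male heads they were 1.07 (A15A), 4.14, 3.26, 0.258 and 0.157 CPM. The F3 1N male heads A5, A4 and A3 had 6.99, 7.66 and 10.1 CPM, while A2A and A1A of the same group had 1.57 and 0.0618 CPM. Among the female heads it reached at most 0.683 CPM. In abdomens Gr32 was at 0 in all but 2 libraries, both of F3 1N males, with 0.0725 and 0.0549 CPM.

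The first comparison asked which receptors differed between head and abdomen within a sex, as a mean over the 4 groups of each tissue. Genes were called at a Benjamini-Hochberg adjusted p below 0.05, over all genes tested, in edgeR's quasi-likelihood test, and only receptors that passed its filter on low counts were tested. That filter lets a gene through on the strength of the group where it is high, so the counts below describe the tested receptors and not the family. In bulk tissue, fewer cells of a type and less RNA per cell cannot be told apart.

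In females the tested receptors were higher in heads. Of the 19 tested, 18 were called higher and 0 lower, while 44.4% of all tested genes were called higher and 44.3% lower. The median log2 difference, head minus abdomen, was 4.31 over the 19 receptors and 0.06 over all genes. Gr6 had 0.868, 2.16 and 7.06 CPM in female heads (lowest, median and highest, n = 19), against 0, 0.0489 and 0.250 CPM in female abdomens (n = 18), with no overlap, and a log2 difference of 5.21 ± 0.45 (SE, adjusted p = 1.1e-12), or 5.08 without A35. Gr3 had 1.59, 8.15 and 13.4 CPM in female heads and 0.268, 1.03 and 2.00 CPM in female abdomens, a log2 difference of 2.42 ± 0.20 (adjusted p = 4.37e-13), or 2.23 ± 0.16 without A35. Its ranges overlapped, because F2 heads lay as low as F14 abdomens.

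Gr49, a member of a 6-gene run on chromosome 5, had 0, 0.782 and 1.44 CPM in female heads and 0, 0.0340 and 0.204 CPM in female abdomens, a log2 difference of 4.31 ± 0.44 (adjusted p = 8.86e-11). Gr2 was also higher in female heads, by 1.32 ± 0.28 on the log2 scale (adjusted p = 5.32e-05). Gr46 was the tested receptor without a call, at 1.00 ± 0.60 (adjusted p = 0.117). The call for Gr14, at 1.47, ended when F2 3N female head A31 was left out (1.24, adjusted p = 0.0772). Gr26, Gr20, Gr30 and Gr38, all called and all of the long run on chromosome 4, had no count in any female abdomen, so their fitted values give no size. Set against a floor of 3 counts over all female abdomens, they were at least 70.5-fold, 36.4-fold, 28.3-fold and 28.3-fold higher in female heads.

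In males the receptors went both ways. Of 19 tested, 8 were called higher in heads and 6 lower, against 40.7% and 39.8% of all tested genes, and their median log2 difference of 0.03 stood beside 0.01 for all genes. Gr3 had 2.21, 5.27 and 25.7 CPM in male heads (n = 20), against 0, 0.592 and 5.35 CPM in male abdomens (n = 18), a log2 difference of 3.07 ± 0.34 (adjusted p = 3.9e-10), or 2.56 ± 0.28 (adjusted p = 8.83e-10) without A1A, A2A and A15A. Only 2 abdomens of F3 2N males reached into the range of heads. Gr32 had 981 summed counts in male heads and 3 in male abdomens, a depth-scaled ratio of 357 (95% counting interval 122 to 1730), with adjusted p = 5.07e-08. Gr33, Gr32's neighbour in the long run on chromosome 4, was at 0 in every male abdomen and at 0, 0.281 and 1.95 CPM in male heads, which makes it at least 66.6-fold higher there (adjusted p = 9.48e-08). Gr26, Gr39, Gr6, Gr20 and Gr25 were the other members called higher in male heads.

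Lower in male heads than in male abdomens were Gr2, Gr47, Gr46, Gr45, Gr14 and Gr49. Gr2 had 1.64, 2.34 and 4.06 CPM in male heads and 3.31, 17.7 and 29.0 CPM in male abdomens, a log2 difference of −2.68 ± 0.25 (adjusted p = 6.6e-12), with 2 abdomens inside the range of heads. Gr47 had 0, 0.119 and 0.368 CPM in male heads and 0, 0.841 and 3.30 CPM in male abdomens (−2.49 ± 0.41, adjusted p = 1.48e-06). Gr46 had 0, 0.0503 and 0.558 CPM in male heads and 0, 0.546 and 2.50 CPM in male abdomens (−2.78 ± 0.52, adjusted p = 1.26e-05). Both overlapped between tissues. Gr45 differed by −2.62, but without the only library of F3 2N male abdomens that held any of its counts (A16) that group stood at 0 and no usable estimate was left.

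**Figure D4:**
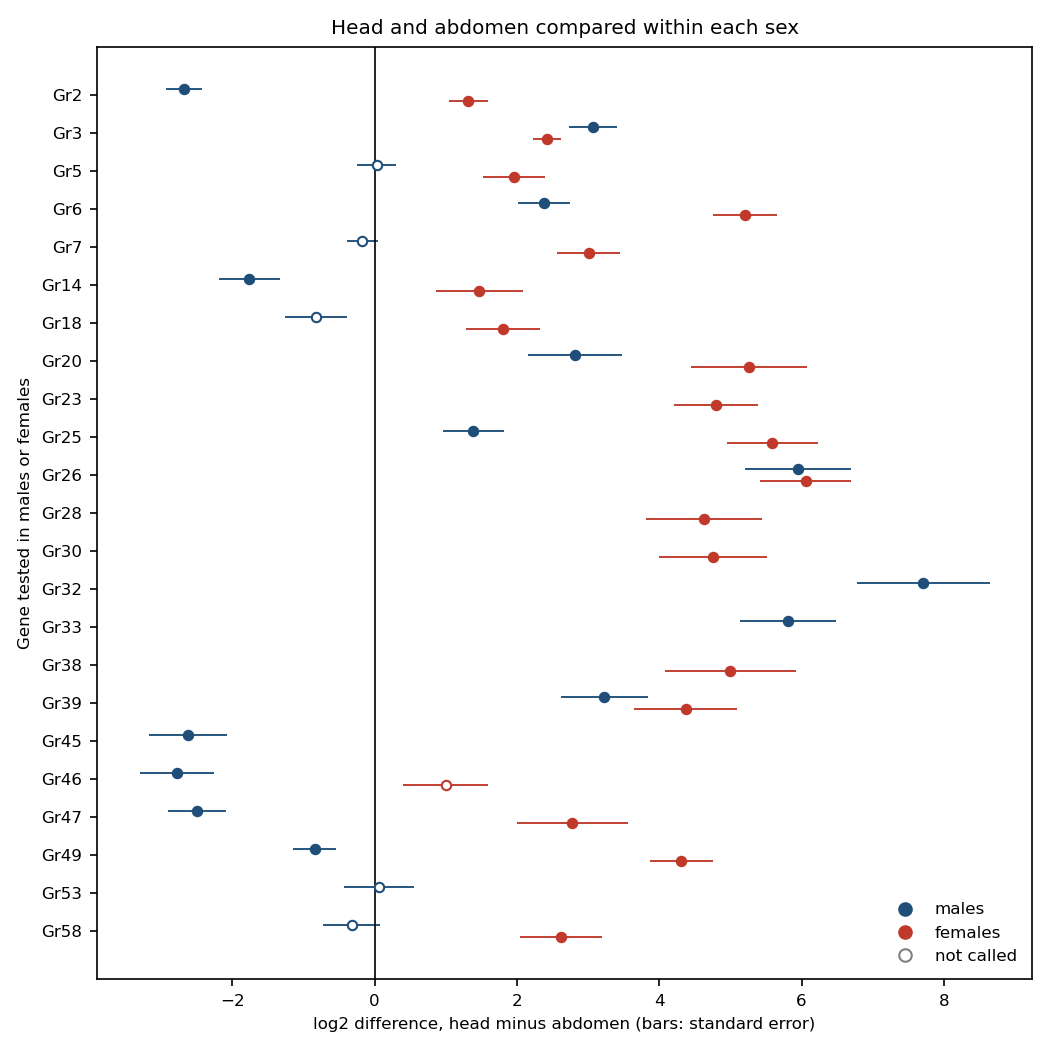
Fitted log2 difference between heads and abdomens (mean of the 4 head groups minus mean of the 4 abdomen groups) for the tested receptors in males and in females. Horizontal bars are standard errors, filled points have an adjusted p below 0.05, and values of genes with no count in a tissue depend on the fit's prior. Points of females lie right of 0, and those of Gr2, Gr14, Gr45, Gr46, Gr47 and Gr49 in males lie left of it.

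Among the receptors called in both sexes, the plot of head against abdomen shows Gr2, Gr14, Gr47 and Gr49 on opposite sides of 0 in males and females. The difference between the sexes was tested in 2N wasps, as males minus females of head minus abdomen, in a comparison added after the data were seen. Of 28 receptors in that fit, 0 were called positive and 13 negative, against 35.3% and 39.3% of all genes. Among the 28 were 10 without a usable estimate (standard errors above 100 on the log2 scale), which had no call. A negative value means that abdomens were higher relative to heads in males than in females. The interaction was −4.27 ± 0.55 for Gr2 (adjusted p = 3.48e-10) and −4.57 ± 0.76 for Gr49 (adjusted p = 2.77e-07), both on the log2 scale. Gr47 was also called (adjusted p = 0.000147), but it had no count in F2 2N female abdomens, so its fitted value gives no size. Gr49 was under 3 counts in all in that group, so the size of its value is uncertain. Male abdomens also held at most 23.6 CPM of the 3 germ line markers, against 1058 to 2917 CPM in female abdomens, and 55.8 to 251 CPM of the 5 neuron markers, against 6.47 to 65.7 CPM in female abdomens, and the part of either in these differences was not tested.

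Summed by run of neighbouring genes, the receptors gave different patterns. The run of 19 members on chromosome 4, from Gr18 to Gr40, summed to 6.10 CPM in male heads and 1.11 CPM in male abdomens, and to 3.56 CPM in female heads and 0.153 CPM in female abdomens. Of these 19, 17 were detected in a head group and 3 in an abdomen group. None of its tested members was called lower in heads in either sex, while 6 of 7 tested in males and 9 of 9 tested in females were called higher, against 40.7% and 44.4% of all genes. Of those called, Gr26 and Gr33 in males and Gr26, Gr20, Gr30 and Gr38 in females had no count in abdomens and passed the filter on the strength of the heads. The run of Gr45, Gr46 and Gr47, also on chromosome 4, did the opposite in males, with 0.334 CPM in male heads and 3.39 CPM in male abdomens. In females it summed to 0.507 CPM in heads and 0.116 CPM in abdomens. On chromosome 5, the run of Gr11 to Gr14 summed to 0.304 CPM in male heads and 0.987 CPM in male abdomens, and that of Gr48 to Gr53 to 0.825 and 1.16 CPM.

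Some of these members lie over other genes, 17 of the 46 in all, and strand is not stated for the counting, so reads of overlapping genes cannot be told apart. Gr45, Gr46 and Gr47 overlap LOC103317736, which averaged 0.722 to 1.51 CPM in heads, 18.1 CPM in F15 2N, 44.1 in F15 1N, 74.3 in F3 2N and 267 in F3 1N male abdomens, and at most 0.228 CPM in female abdomens. Its order over the male abdomen groups has the same top group as all 3 receptors. Gr5 overlaps CYP9AG3, which averaged 310 to 727 CPM in male and 3.02 to 16.2 CPM in female abdomens. Gr18 overlaps LOC100121366, abundant instead in female abdomens, at 119 to 149 CPM against 3.20 to 9.99 CPM in male ones. The gene that Gr2 overlaps, LOC100119944, averaged at most 2.41 CPM in any group of male abdomens, far below Gr2. In heads LOC100119944 averaged 2.702 to 6.952 CPM. Gr3 overlaps 5 loci, of which Tmem59l, the only one with a symbol other than a LOC number, averaged 222 to 339 CPM over the head groups and 30.4 to 75.5 CPM over the abdomen groups. The part of these overlaps in the receptor values was not tested.

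**Figure D5:**
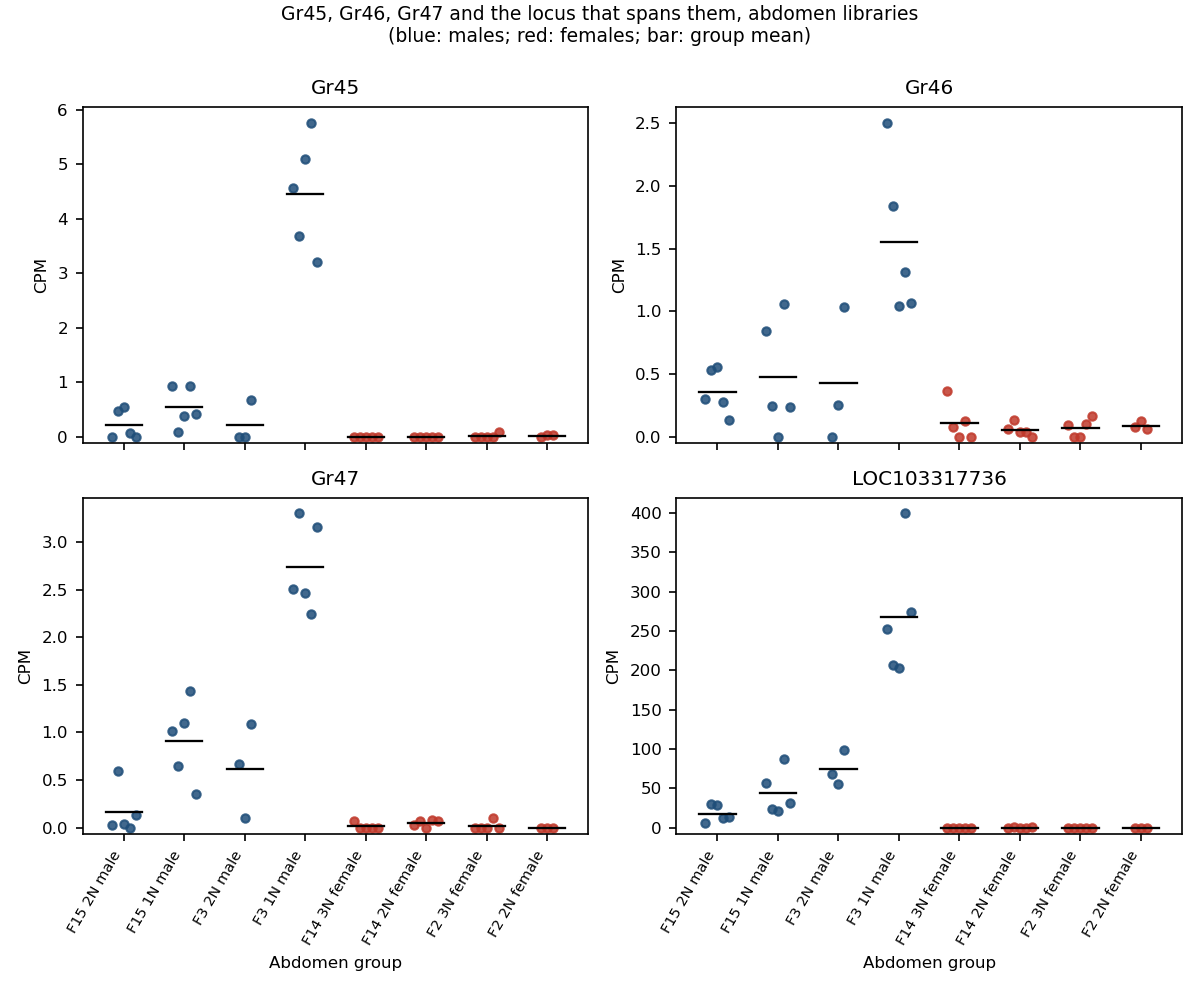
Level of Gr45, Gr46 and Gr47 and of the gene they overlap, LOC103317736, in every abdomen library, in CPM on a linear axis. Groups of males lie left of those of females, and the bar is the group mean. All 4 genes are highest in F3 1N male abdomens and near 0 in female abdomens.

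Sex was compared in 2N wasps within early (F3 males, F2 females) and late generations (F15 males, F14 females). In heads few receptors differed. Of 15 tested in early heads, 2 were called higher in males and 0 lower, against 23.1% and 21.5% of all genes. Gr3 had 25.7, 5.11, 5.43, 12.1 and 7.47 CPM in F3 2N male heads, against 1.88, 1.59, 1.96, 2.37 and 2.07 CPM in F2 2N female heads. Every male head lay above every female head, with a log2 difference of 2.52 ± 0.47 (adjusted p = 9.16e-05), which was 1.93 ± 0.32 (adjusted p = 3.32e-05) without A1A, A2A and A15A. Gr32 had 1.07, 4.14, 3.26, 0.258 and 0.157 CPM in those male heads and 0.0469, 0, 0, 0.0928 and 0.0673 CPM in the female ones, also without overlap (5.14 ± 1.3, adjusted p = 0.00203), or 5.26 ± 1.24 (adjusted p = 0.00111) without A1A, A2A and A15A. Odorant receptors went the other way in the same contrast, with 0 of 153 tested higher in males and 105 lower.

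In late heads 2 of 15 were called higher in males and 2 lower, against 28.6% and 24.1% of all genes. Gr33 had 0.283, 0.167, 0.839, 1.12 and 0.723 CPM in F15 2N male heads, against 0.117, 0, 0.318, 0 and 0 CPM in F14 2N female heads (2.80 ± 0.99, adjusted p = 0.0181). Gr23 had 0.0566, 0, 0, 0.169 and 0.136 CPM in the male heads and 0.293, 0.682, 0.572, 0 and 0.537 CPM in the female ones (−2.39 ± 0.80, adjusted p = 0.0126). Each of these overlapped in 1 female library, and Gr23 did not pass the filter in 4 of the 10 fits that left out a library. Gr3 turned round relative to the early heads, with 4.81, 3.91, 5.56, 5.08 and 4.65 CPM in F15 2N male heads below all of the 8.82, 8.28, 11.4, 10.4 and 11.3 CPM in F14 2N female heads. Its log2 difference was −1.05 ± 0.44 (adjusted p = 0.045). That call ended in 9 of 10 fits that left out a library, with adjusted p between 0.0509 and 0.087, and Gr7, at 1.15 ± 0.44 (adjusted p = 0.0278), lost its call in 5 of 10, with adjusted p between 0.0532 and 0.0927.

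The change of the sex difference between periods was tested directly in heads, again in an added comparison, as late minus early of males minus females. Of the 15 receptors, 0 were called positive and 3 negative, against 30.6% and 27.2% of all genes. They were Gr3 at −3.57 ± 0.64 (adjusted p = 2.12e-05), Gr6 at −1.75 ± 0.61 (adjusted p = 0.0148) and Gr23 at −2.97 ± 1.14 (adjusted p = 0.0255). Without A1A, A2A and A15A, Gr3 was at −2.98 ± 0.44 (adjusted p = 1.49e-06) and Gr6 at −1.64 ± 0.60 (adjusted p = 0.0203). Gr23 did not pass the filter in 13 of the 20 fits that left out a library. For Gr3 and Gr6, mean levels in late female heads were above those in early ones.

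In abdomens most tested receptors were higher in males, but the filter favoured that direction. The same 12 receptors passed it in male abdomens alone, while in female abdomens alone only Gr2, Gr3 and Gr7 did. The counts for early and late abdomens, and the median, thus describe receptors let through mainly by male abdomens. Of 12 tested in early abdomens, 8 were called higher in males and 0 lower, against 42.6% and 38.9% of all genes, with a median log2 difference of 3.44 beside 0.25 for all genes. Gr49 had 1.55, 0.811 and 2.28 CPM in F3 2N male abdomens, against 0, 0 and 0.0341 CPM in F2 2N female abdomens (6.55 ± 1.08, adjusted p = 2.31e-06). Those female abdomens held Gr49 below the floor of 3 counts in all, so the size of 6.55 is uncertain. Gr2 had 11.9, 25.6 and 18.7 CPM in the male and 0.0396, 0.7102 and 0.545 CPM in the female abdomens (5.35 ± 0.95, adjusted p = 7.88e-06). Gr47 had 0.666, 0.101 and 1.09 CPM in male abdomens and no count in the female ones, at least 17.6-fold higher (adjusted p = 0.000263). None of these 3 overlapped between the sexes. Gr6, Gr7, Gr18, Gr58 and Gr3 were also called, Gr58 not without A20 or F2 2N female abdomen A28 (2.69 and 3.09, adjusted p = 0.0761 and 0.0561). Gr3, at 1.76 ± 0.74 (adjusted p = 0.03), rests on single libraries. It was 0.72 (adjusted p = 0.402) without F3 2N male abdomen A18, 1.71 (adjusted p = 0.0548) without A20, and 1.82 and 1.5 without F2 2N female abdomen A27 or A26 (adjusted p = 0.0589 and 0.106).

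Of 12 tested in late abdomens, 9 were called higher in males and 1 lower, against 38.5% and 36.9% of all genes. Of those higher, Gr18 at 1.86 (adjusted p = 0.0444) lost its call in 6 of 10 fits that left out a library. Its adjusted p there was 0.0705 to 0.169, and it was 0.0643 without the filter. Gr58 at 2.45 (adjusted p = 0.0316) lost its call in 5 of 10, with adjusted p between 0.0548 and 0.0775. Gr7 had 2.67, 0.848, 1.68, 1.17 and 2.56 CPM in F15 2N male abdomens, against 0.356, 0.0413, 0, 0.0408 and 0.5999 CPM in F14 2N female abdomens, with no overlap (3.03 ± 0.78, adjusted p = 0.000832). Gr2 had 3.65, 11.9, 25.2, 28.3 and 5.19 CPM in the male and 2.85, 2.68, 2.11, 2.53 and 3.37 CPM in the female abdomens, again with every male library higher (2.40 ± 0.63, adjusted p = 0.00109). Gr45 had 0, 0.471, 0.558, 0.0690 and 0 CPM in the male abdomens and no count in the female ones, at least 13.9-fold higher over the summed counts (adjusted p = 0.00264). Gr3 was the member called lower, with 0.719, 0.754, 0.172, 0.483 and 0.346 CPM in the male and 1.66, 0.992, 2.00, 1.35 and 1.36 CPM in the female abdomens, without overlap (−1.59 ± 0.58, adjusted p = 0.0149).

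The sex difference in abdomens was tested between periods in the same way, also in a comparison added after the data were seen. Of the 12, 0 were called positive and 5 negative for late minus early, against 21.9% and 23.1% of all genes, among them Gr3 at −3.35 ± 0.94 (adjusted p = 0.00469), Gr49 at −4.37 (adjusted p = 0.0048) and Gr2 at −2.94 (adjusted p = 0.0225). The value of Gr2 was −2.41 without F2 2N female abdomen A28 and −2.59 without A18 (adjusted p = 0.0779 and 0.0528). F2 2N female abdomens held under 3 counts of Gr49 in all, so the size of its value is uncertain.

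Generation was compared within a sex and tissue as a mean over both ploidies. No batch is named in the labels, and early and late libraries never share a group, so generation cannot be told apart from a difference between library batches. In female heads 4 of 10 tested receptors were called higher in F14 than in F2 and 0 lower, against 27.4% and 32.7% of all genes, with a median log2 difference of 0.93 beside −0.04 for all genes. Gr3 had 5.75, 9.83 and 13.4 CPM in F14 female heads (lowest, median and highest, n = 10), against 1.59, 2.07 and 8.44 CPM in F2 female heads (n = 9), a log2 difference of 1.85 ± 0.27 (adjusted p = 1.36e-05). A35 alone among the F2 heads overlapped with F14, and without it the difference was 2.27 ± 0.17. Gr6 had 1.23, 3.20 and 7.06 CPM in F14 and 0.868, 1.21 and 3.71 CPM in F2 female heads, where A35 was again the highest (1.19 ± 0.30, adjusted p = 0.00239, or 1.49 ± 0.28, adjusted p = 0.00012, without it).

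Gr25 had 0.0597, 0.550 and 2.34 CPM in F14 female heads and 0, 0.141 and 0.275 CPM in F2 female heads (2.09 ± 0.62, adjusted p = 0.00748). The fourth was Gr26 (1.68 ± 0.58, adjusted p = 0.0185), whose call ended without F14 3N female head A52 (1.33, adjusted p = 0.0502). Over the same libraries 1 of 142 tested odorant receptors was higher in F14 and 123 were lower, and Or1 differed by −5.24 ± 0.72. The 5 neuron markers summed to 1668 to 2329 CPM in F14 female heads and 1392 to 1882 CPM in F2 female heads. The part of these in the receptor values was not tested.

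In male heads 2 of 10 tested receptors were called higher in F15 than in F3 and 0 lower, against 23.4% and 28% of all genes. Gr33 had 0.167, 0.781 and 1.95 CPM in F15 male heads (n = 10), against 0, 0.0806 and 0.363 CPM in F3 male heads (n = 10), with 3 F3 libraries inside the range of F15, and a log2 difference of 2.72 ± 0.53 (adjusted p = 0.000328), or 2.31 ± 0.46 (adjusted p = 0.00056) without A1A, A2A and A15A. Gr7 differed by 0.81 ± 0.32 (adjusted p = 0.0382), a call lost in 10 of 20 fits that left out a library, with adjusted p between 0.0502 and 0.0808. Gr32 was lower by a log2 difference of −1.54 (adjusted p = 0.0871), which became −1.91 (adjusted p = 0.0322) without A1A, A2A and A15A. For Gr3 the difference of −0.77 did not pass (adjusted p = 0.0716).

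In female abdomens 2 of the 3 tested receptors were called higher in F14 than in F2 and 0 lower, against 21.6% and 22.3% of all genes. They were Gr3, with 0.916, 1.51 and 2.00 CPM in F14 (n = 10) against 0.268, 0.554 and 1.06 CPM in F2 (n = 8), at 1.21 ± 0.29 (adjusted p = 0.00346), and Gr2, at 1.48 ± 0.51 (adjusted p = 0.0265). The ranges of Gr3 overlapped at their edges. The call for Gr2 ended without F14 3N female abdomen A57 (0.94, adjusted p = 0.0551) and without F2 2N female abdomen A28 (1.22, adjusted p = 0.0571).

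In male abdomens 2 of 12 tested receptors were called higher in F15 than in F3 and 4 lower, against 27.3% and 25.9% of all genes. Gr5 had 0.644, 0.913 and 1.64 CPM in F15 male abdomens (n = 10), against 0.259, 0.508 and 0.649 CPM in F3 male abdomens (n = 8), with 1 overlapping library in each (1.25 ± 0.30, adjusted p = 0.00199). CYP9AG3, which Gr5 overlaps, was also higher in F15, averaging 655.5 (2N) and 726.6 CPM (1N). In F3 male abdomens it averaged 310 (2N) and 316.5 CPM (1N), with 92.1 to 870 CPM in single 1N libraries. Its part in the Gr5 values was not tested. Gr7 had 0.848, 2.54 and 4.15 CPM in F15 and 0.487, 0.955 and 1.42 CPM in F3 male abdomens (1.18 ± 0.30, adjusted p = 0.00278). Lower in F15 were Gr18 at −1.86 (adjusted p = 0.0112), Gr3 at −1.71 (adjusted p = 0.0137), Gr47 at −1.66 (adjusted p = 0.0167) and Gr6 at −1.84 (adjusted p = 0.0255). Without 1 library of F3 2N male abdomens each, the last 3 lost their calls, Gr3 at −1.26 without A18 (adjusted p = 0.0827), Gr47 at −1.33 without A16 (adjusted p = 0.0732) and Gr6 at −1.76 without A20 (adjusted p = 0.0529).

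Ploidy was compared within each generation, sex and tissue. Calls came from 1 of the 8 comparisons, abdomens of F3 males, where 0 of 12 tested receptors were called higher in 2N than in 1N and 2 lower, against 21.3% and 19.6% of all genes. Gr45 had 0 (A20), 0 (A18) and 0.673 (A16) CPM in F3 2N male abdomens, against 4.57, 3.68, 5.10, 5.76 and 3.20 CPM in F3 1N male abdomens, a log2 difference of −4.22 ± 1.24 (adjusted p = 0.0122), with every 1N library far above every 2N one. Without A18 it was −3.65 (adjusted p = 0.0517). Gr14 had 0.444, 0 and 0.259 CPM in 2N and 1.70, 0.919, 1.32, 1.36 and 1.42 CPM in 1N male abdomens of F3, also without overlap (−2.38 ± 0.91, adjusted p = 0.0445). Its call ended in 6 of the 8 fits that left out a library, where the difference was −1.82 to −2.44 and adjusted p 0.0578 to 0.132.

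The neighbours of Gr45 were not called. Gr46 had 0, 0.254 and 1.04 CPM in F3 2N and 2.50, 1.84, 1.04, 1.31 and 1.07 CPM in F3 1N male abdomens, at −1.75 ± 0.99 (adjusted p = 0.166). Gr47 had 0.666, 0.101 and 1.09 CPM in 2N and 2.50, 3.30, 2.47, 2.24 and 3.15 CPM in 1N, at −2.03 ± 0.86 (adjusted p = 0.0688). All Gr47 values of 2N libraries lay below those of 1N. The plot of Gr45, Gr46 and Gr47 in abdomens shows the overlapping LOC103317736 in the same libraries, at a mean of 74.3 CPM in F3 2N and 267 CPM in F3 1N male abdomens. The 5 neuron markers summed to 175 to 251 CPM in F3 2N and 82.5 to 117 CPM in F3 1N male abdomens, and their part was not tested.

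No tested receptor was called for ploidy in the other 7 comparisons by edgeR. In female heads, 0 of 10 were called in F2 (3.63% of all genes higher and 2.18% lower) and 0 of 10 in F14 (2.39% and 1.18%), with 1 and 2 at an unadjusted p below 0.05 and 0 by DESeq2 in each. In male heads, 0 of 10 were called in F3 (5.24% and 6.74%) and 0 of 10 in F15 (2.18% and 1.07%), with 0 at an unadjusted p below 0.05 and 0 by DESeq2 in each. Without A1A, A2A and A15A, however, Gr3 was higher in 2N than in 1N heads of F3 males, at 1.46 ± 0.28 (adjusted p = 0.00155), and Gr18 lower, at −2.60 (adjusted p = 0.0318). That removal was uneven. It took out A1A and A2A, the 1N heads with the most Gr3, and from the 2N heads A15A alone. It kept A12, the 2N head with the next most Gr3 after A15A, whose Or1 was also low. These 2 values therefore do not establish a ploidy difference. In female abdomens 0 of 3 were called in F2 (0% and 0%) and in F14 (0% and 0.0553%), with 1 and 0 at an unadjusted p below 0.05 and 0 by DESeq2. In abdomens of F15 males 0 of 12 were called (1.18% and 2.93%), 2 had an unadjusted p below 0.05, and DESeq2 called 1, Gr47.

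Whether a ploidy difference changed between generations was tested as late minus early. No tested receptor was called by edgeR in female heads (2.71% of all genes higher and 3.77% lower), male heads (3.93% and 4.71%), female abdomens (5.79% and 5.49%) or male abdomens (9.54% and 12%). At an unadjusted p below 0.05 there were 0, 1, 1 and 2 receptors in that order, and DESeq2 called 2, Gr14 and Gr18 in male abdomens, and 0 elsewhere. Without A1A, A2A and A15A, Gr3 was called in male heads at −1.64 (adjusted p = 0.00542), beside Gr18 and Gr49. The uneven removal of F3 heads described above limits these calls too.

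The genes whose level over the 16 group means was most like that of a leading receptor were looked up among 528 genes with a symbol other than a LOC number and a mean of at least 1 CPM, as a description with no test. For Gr3 they were ppo3, Gnao and nAChRa8, with Pearson correlations of 0.929, 0.913 and 0.906 between log2 CPM values. For Gr2 they were CCE-A5, Wds and Zasp66, with 0.955, 0.952 and 0.945, and for Gr32 they were CYP9AG7, Or296 and CPR48, with 0.884, 0.856 and 0.842. The 16 points share 2 tissues, and nothing about function or control follows from these values.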

How the data were processed

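The deposited expected counts per gene come from STAR 2.7.11a and RSEM 1.3.1, per the submitters' processing notes, from poly(A) RNA that was extracted without DNase, per the labels' protocols. TPM values of the same libraries were also deposited by the authors. Which genome build and annotation the authors used is not stated in the sources used here. Reads that fit several genes are split by RSEM: 3.78% of the receptor values were not whole, all in Gr3, Gr7 and Gr10. TPM was used only to order levels between genes. The TPM column of 75 of 76 libraries ranked genes most like its own counts, and A70 of F14 2N female abdomens was the exception (rank correlation 0.948).

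Expected counts were rounded for the tests. Levels of receptors and of overlapping genes, and Or1 set beside Gr3, are CPM of unrounded counts scaled by TMM over the 75 libraries other than A34. Marker levels, from the check of tissue labels onward, are CPM of the library total without TMM. Or1 in A79, for example, was 20.2 CPM by the library total and 23.7 CPM by TMM. Tests were run in R 4.3.3 with edgeR 4.0.16 (quasi-likelihood, robust) after filterByExpr, over all genes of each fit, with Benjamini-Hochberg adjustment and calls below 0.05. SE is the log2 difference over the root of F. Tissue was tested in all 8 groups of a sex, sex in all 8 groups of a tissue, and generation and ploidy in the 4 groups of a sex and tissue. The scripts were tested on simulated data. Alternatives were RLE scaling, DESeq2 1.42.0, no filter, A34 kept, A34 and A35 left out, A1A, A2A and A15A left out, the compared groups only, and each library left out in turn.

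Members and gene lists were chosen with earlier results of these data known. Values are given in full for the 8 members with the highest group mean TPM and, in each comparison, for up to 3 called members in each direction by lowest adjusted p. Depth of 14.2 to 60.1 M counts makes 1 count worth little, but reads without molecular identifiers are not independent molecules, so intervals and floors (3 counts) cover counting error only.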

Additional observations from a re-analysis of the deposited data

Results flagged for a closer look

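The flag for 1 library far from the others has a rate of about 1 in 20 by chance only for independent, normally distributed values. Low, skewed levels and a sum taken beside its own members are not such values, so no excess over that rate is claimed. In 12 of 79 combinations of a group and a receptor value, 1 library was flagged. For the summed receptor level these were A74 of F15 1N male heads (24.0 CPM, the nearest other library 21.1), A22 of F2 2N female heads (14.5 CPM, 11.6) and A57 of F14 3N female abdomens (8.86 CPM, 3.93). A57 also had the outlying Gr2 value of its group (5.64 CPM, the nearest other 1.24). Gr2 stood apart in A75 of F15 1N male heads (3.89 CPM, 2.45) and A2A of F3 1N male heads (4.06 CPM, 2.61). A35 of F2 3N female heads stood apart for Gr3 (8.44 CPM, 2.17) and for Gr6 (3.71 CPM, 1.43), and A80 of F15 1N male abdomens for Gr6 (1.02 CPM, 0.149). For Gr47 it was A61 of F14 2N female heads (0.776 CPM, 0.127) and A89 of F15 2N male abdomens (0.597 CPM, 0.138), and for Gr46 A84 of F15 2N male heads (0.558 CPM, 0.105).

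The difference between head and abdomen differed between 2N males and 2N females for 13 receptors, all with a negative log2 interaction: Gr47 (−4.94), Gr49 (−4.57), Gr2 (−4.27), Gr24 (−4.11), Gr25 (−3.84), Gr23 (−3.39), Gr18 (−3.35), Gr45 (−3.26), Gr14 (−2.88), Gr6 (−2.68), Gr58 (−2.54), Gr7 (−2.51) and Gr5 (−1.58). Gr23, Gr24, Gr25 and Gr47 had no count in F2 2N female abdomens and Gr45 none in F14 2N female abdomens, so their fitted values depend on the prior count and give no size. The sex difference of 2N wasps differed between late and early generations in heads for Gr3 (−3.57), Gr23 (−2.97) and Gr6 (−1.75). In abdomens it differed for Gr47 (−5.40), Gr49 (−4.37), Gr6 (−4.34), Gr3 (−3.35) and Gr2 (−2.94), where the value of Gr47 again gives no size. Gr6 and Gr49 each summed to under 3 counts in F2 2N female abdomens, so the sizes of their interactions with tissue and with period in abdomens are uncertain. In the comparison of tissues, the call of Gr5 ended in 11 of 36 fits that left out a library and that of Gr45 in 3. The calls of Gr14, Gr25 and Gr58 ended in 1 each. In that of periods in abdomens, Gr6 lost its call in 13 of 16 such fits, Gr47 in 4 and Gr2 in 2. In these comparisons Gr5 and Gr6 also lost theirs without the filter (adjusted p = 0.0522 and 0.0598), and Gr5 with A34 kept (adjusted p = 0.0507).

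Library A34, labelled as a head and used in no comparison, held 77 expected counts of gustatory receptors, with 2 members at 3 counts or more, 53 counts of Gr2 and 9 of Gr3.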

How the results depend on the processing

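Of 93 calls of a receptor in a comparison, 72 held under every alternative other than leaving out 1 library, 64 with each library left out in turn, 55 under all of these, and 0 changed direction. Under those other alternatives 8 lost the call in at least 1 fit and 13 others failed the filter in at least 1 and were not tested there; with single libraries left out these were 24 and 5. The number of called receptors moved in these cases. With DESeq2 it was 28 for head against abdomen in females (18), 27 in males (14), 7 for sex in late heads (4), 8 for F14 against F2 female heads (4), 5 for ploidy in F3 male abdomens (2), 1 in F15 male abdomens (0), 2 for the ploidy by generation interaction there (0) and 6 for the sex by period interaction in heads (3). Without the filter on low counts it was 34, 29 and 7 for tissue in females, tissue in males and F14 against F2 female heads, 1 for ploidy in F3 male heads (0), 1 in F3 male abdomens and 6 for sex by period in heads. With A34 kept it was 1 for sex in late heads and 1 for sex by period in heads. In fits of the compared groups only it was 1 for sex in late heads, 4 in early abdomens (8), 4 in late abdomens (10) and 4 for ploidy in F3 male abdomens. Without A1A, A2A and A15A it was 2 for ploidy in F3 male heads and 3 for its interaction with generation. The cause was not tested. Detection in any group fell to 17 members at 10 counts and to 20 if every library had to hold 3 counts, in any head group to 11 and 18, and in any abdomen group it was 32 if 1 library sufficed.

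Leaving out each library in turn gave 16 to 21 calls for tissue in females, 13 to 16 in males and 12 to 14 for sex by tissue. Sex gave 2 to 3 in early heads, 1 to 3 in late heads, 7 to 10 in early abdomens, 8 to 10 in late abdomens, and 2 to 4 and 2 to 5 for sex by period in heads and abdomens. Generation gave 3 to 6 in female heads, 1 to 3 in male heads, 1 to 2 in female abdomens and 5 to 7 in male abdomens. Ploidy gave 0 to 4 in F3 male abdomens, 0 to 1 in F15 male abdomens, F3 male heads and F14 female abdomens, and 0 elsewhere; its interaction gave 0 in female heads, 0 to 1 in male heads and female abdomens and 0 to 2 in male abdomens. Detection ranged over 35 to 38, 32 to 35 and 15 to 18 members in any group, head and abdomen. In 4 of these fits a receptor had no usable estimate, each with a group left without a count. No paired analysis was possible because the labels give no replicate numbers that groups share.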
